A study of Mus musculus with 12 samples.

Results

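The genes described here are 10 neuronal cytoskeleton genes, chosen by symbol from the 36047 genes of the deposited table: the filament genes *Nefl*, *Nefm*, *Nefh*, *Ina* and *Prph*, and the microtubule genes *Mapt*, *Map2*, *Map1b*, *Tubb3* and *Kif5a*. They were measured by RNAseq of poly(A) RNA from mouse brain cortex in 12 libraries, 3 for each genotype (WT or *Gde2*KO) at each of 2 ages (4 or 19 months). *Gde2*KO mice carry a knockout of *Gdpd5*, the gene of GDE2, a surface enzyme that cuts the glycosylphosphatidylinositol anchor of membrane proteins. The knockout is a germline one and is present in every cell, no group received a treatment, and males and females were both used, with no sex given for single libraries. Replicate numbers are given at 4 months, whereas the 19-month columns carry none and are called A, B and C here.

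Neurofilaments are the intermediate filaments of axons, built on the light chain NFL (*Nefl*) together with the medium and heavy chains NFM (*Nefm*) and NFH (*Nefh*) and with α-internexin (*Ina*). Peripherin (*Prph*) joins them mainly in neurons that send axons out of the brain. Microtubules are polymers of α- and β-tubulin, of which *Tubb3* encodes the neuronal class III β-tubulin. Tau (*Mapt*) binds them mainly in axons, MAP2 (*Map2*) in dendrites, and MAP1B (*Map1b*) above all in growing neurites, and *Kif5a* encodes a neuronal kinesin-1 heavy chain that carries neurofilaments, among other cargoes, along microtubules. Tau and MAP2 bind through a row of repeats, 1 of which is encoded by an exon that can be skipped, exon 10 in *Mapt* and its counterpart in *Map2*. A very large exon of *Map2* is present in the high-molecular-weight form of dendrites and absent from the short form, MAP2C.

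The *Map2* exon that encodes the optional repeat is shown because it was in a small share of *Map2* transcripts by level. The *Map2* repeat exon lies at chr1:66431527-66431619 (plus strand) and is 93 bases long, taken from the GENCODE vM21 transcripts on GRCm38, with no bases in capitals.
Map2 repeat exon: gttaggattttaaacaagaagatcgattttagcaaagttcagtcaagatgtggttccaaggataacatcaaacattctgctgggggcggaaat
Transcripts that hold the *Map2* repeat exon made up 2.79% to 6.61% of *Map2* TPM in the 12 libraries, and 7 annotated *Map2* transcripts skip it. Transcripts that hold *Mapt* exon 10 made up 82.2% to 90.2% of *Mapt* TPM, but 0 annotated *Mapt* transcripts span and skip that exon, so that the 2 shares cannot be set against each other. TPM is a transcript's level divided by its length and scaled to the library.

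The libraries held 46434270 to 59728494 estimated reads at 4 months and 3707928 to 44604721 at 19 months, with 19-month WT library A and *Gde2*KO library A far shallower than the others. Values are normalized counts, the estimated reads of all transcripts of a gene divided by a size factor of the library, so that 1 read equals 0.597 to 0.847 normalized counts in 10 libraries but 4.66 in WT library A and 8.29 in *Gde2*KO library A. All 9 neuronal markers were detected, with a summed level of 5567 to 6875 TPM. The 9 hippocampal markers summed to 233 and 201 TPM in 4-month WT replicates 1 and 2 and to between 18.3 and 47.7 in the other 10 libraries. The 8 striatal markers summed to 732 to 1995 TPM in 4-month WT replicate 3 and the 4-month *Gde2*KOs, and to 114 to 474 in the others. Deep-layer markers summed to 537 and 543 TPM in 4-month WT replicates 1 and 2, those with high hippocampal markers. They summed to 256 to 339 in the rest of the 4-month libraries and 222 to 255 at 19 months. The 7 oligodendrocyte markers summed to 2915 to 3762 TPM at 4 months and 2194 to 3539 at 19 months. These libraries therefore differed in the RNA of region and cell type markers, at 4 months along with genotype in part and between the ages. A change of RNA per cell and a change in the number of cells of a type, or in the region sampled, cannot be told apart. Where 4-month WT replicates 1 and 2 are called hippocampal below, the name refers to their marker level alone. The sums lay at 1040 to 1514 TPM for astrocytes, 98.1 to 165 for microglia, 125 to 246 for endothelial cells, 3.90 to 37.7 for choroid plexus and 481 to 4805 for blood.

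**Figure D1:**
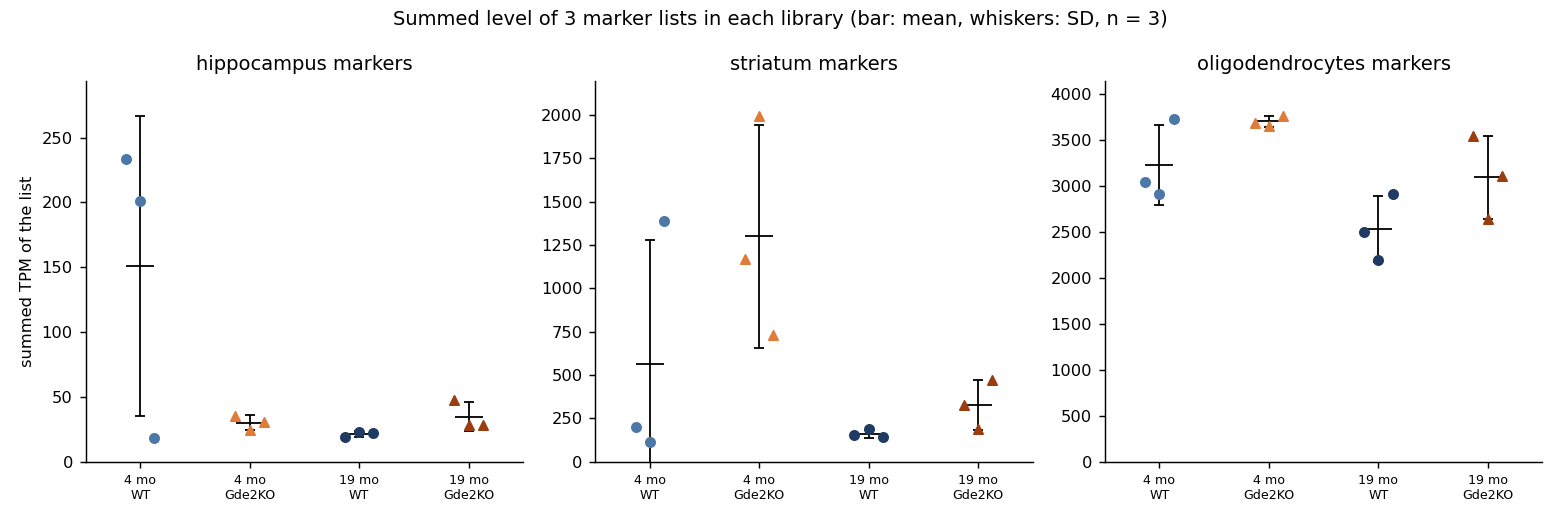
Summed TPM of the hippocampal, striatal and oligodendrocyte marker lists in each library, by group; each point is a library, horizontal bars are means and whiskers are SD (n = 3). In 4-month WT, 2 libraries stand at 233 and 201 TPM of hippocampal markers and the third at 18.3, and the striatal markers lie between 732 and 1995 TPM in 4 of the 6 libraries of 4 months, above every library of 19 months.

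The targeted gene was lower in the *Gde2*KOs at both ages. *Gdpd5* (chromosome 7, 99381414 to 99461877) had 684, 702 and 1199 normalized counts in 4-month WT and 417, 585 and 403 in 4-month *Gde2*KO replicates. At 19 months the WT libraries had 1065, 1129 and 952 and the *Gde2*KO libraries 441, 456 and 560. In normalized counts no *Gde2*KO library reached a WT library of its age. RNA of the gene was still measured in all of them, at 0.544 of the WT mean at 4 months and 0.463 at 19 months. In TPM the genotypes overlapped at 4 months, with 12.3, 12.7 and 24.4 in WT and 9.34, 14.9 and 8.87 in *Gde2*KO replicates. The log2 fold change was -0.85 (SE 0.25, limma adjusted p = 0.463) at 4 months and -1.11 (SE 0.12, limma adjusted p = 0.0111) at 19 months, and the second passed the test. That call was lost without 19-month WT library A (-1.10, limma adjusted p = 0.118), and over the alternatives its adjusted p ran from 0.0071 to 0.548.

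Of the 10 genes, *Kif5a* had the highest level per length and *Prph* the lowest. Over the 12 libraries the mean was 736 TPM for *Kif5a*, 401 for *Map2*, 296 for *Nefl*, 293 for *Tubb3*, 226 for *Mapt*, 188 for *Nefm*, 161 for *Map1b*, 120 for *Ina*, 39.7 for *Nefh* and 1.14 for *Prph*. Thus all but *Nefh* and *Prph* were among the 1359 most abundant of 36047 genes, with *Nefh* at rank 4503 and *Prph* at rank 15543. The order *Kif5a*, *Map2*, *Nefl* held in 12 of 12 libraries, as did *Tubb3* above *Mapt*, *Ina* above *Nefh* and *Nefh* above *Prph*. *Nefl* exceeded *Tubb3* in 4 libraries, so the 2 genes had no fixed order. *Mapt* exceeded *Nefm* in 11 libraries, *Nefm* exceeded *Map1b* in 10 and *Map1b* exceeded *Ina* in 11.

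**Figure D2:**
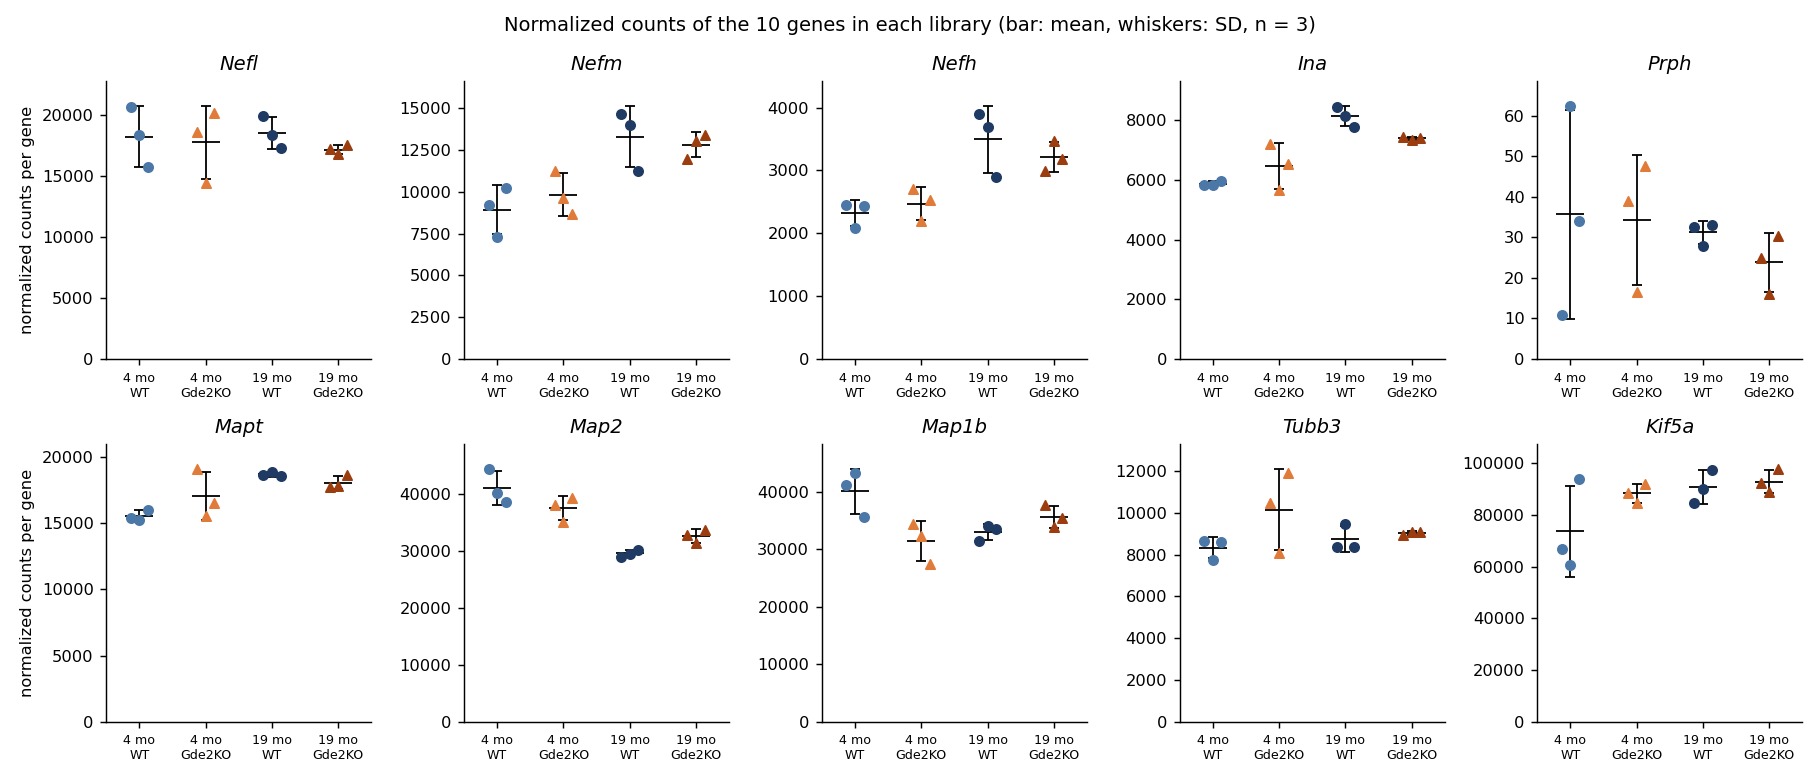
Normalized counts of the 10 genes in each library (vertical axis, from 0), by group; each point is a library, horizontal bars are means and whiskers are SD (n = 3). *Nefm*, *Nefh* and *Ina* are higher and *Map2* is lower in all 6 libraries of 19 months than in all 6 of 4 months, while the libraries of *Nefl* overlap between every pair of groups.

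The clearest pattern among the filament genes was with age. *Nefm*, *Nefh* and *Ina* were higher at 19 months than at 4 months, and *Nefl* was not. The ages were separate sets of libraries, with total normalized TPM of 1003570 to 1472299 at 4 months and 887748 to 929745 at 19 months. In all that follows, age therefore cannot be told apart from library set and depth. A gene was called when its Benjamini-Hochberg adjusted p was under 0.1 and its natural-log fold change was above 0.5 in size, which is 0.72 on the log2 scale. By that rule 0 of the 10 genes was called for age, in WT, where 13.7% of all genes tested were, or in *Gde2*KOs, where 11.9% were. By the adjusted p alone, 5 of the 10 genes passed in WT (*Nefm*, *Nefh*, *Ina*, *Mapt* and *Map2*), against 28.2% of all genes, and 2 passed in *Gde2*KOs (*Nefm* and *Nefh*), against 32.3%. An unadjusted p under 0.05 was found by limma for 7 genes in WT, beside 34.5% of all genes, and for 4 in *Gde2*KOs, near the 37.5% of all genes.

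*Nefm* (chromosome 14, 68082590 to 68124846, minus strand) had 9214, 7324 and 10237 normalized counts in the 4-month WT replicates and 11223, 9616 and 8652 in the 4-month *Gde2*KOs. At 19 months it had 14678, 13969 and 11250 in WT and 11960, 13050 and 13417 in *Gde2*KOs. Each of the 6 older libraries was above each of the 6 younger ones, though WT library C lay just over 4-month *Gde2*KO replicate 1. The level in WT was 1.49 times that at 4 months, a log2 fold change of 0.58 (SE 0.14, limma adjusted p = 0.0182), and in *Gde2*KOs 1.30 times, a log2 fold change of 0.39 (SE 0.14, limma adjusted p = 0.0711).

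*Nefh* (chromosome 11, 4938754 to 4948064, minus strand) had 2449, 2087 and 2436 normalized counts in 4-month WT and 2700, 2190 and 2532 in 4-month *Gde2*KOs. At 19 months it had 3895, 3690 and 2895 in WT and 2994, 3472 and 3178 in *Gde2*KOs. The ages did not overlap. *Nefh* was 1.50 times as high at 19 months in WT (log2 fold change 0.58, SE 0.13, limma adjusted p = 0.0108) and 1.30 times in *Gde2*KOs (0.38, SE 0.13, limma adjusted p = 0.0512).

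*Ina* (chromosome 19, 47014698 to 47025327, plus strand) had the tightest groups of the filament genes. Its normalized counts were 5841, 5823 and 5962 in 4-month WT, 7189, 5650 and 6540 in 4-month *Gde2*KOs, 8451, 8146 and 7781 in 19-month WT and 7425, 7338 and 7401 in 19-month *Gde2*KOs. Again all libraries of 19 months were above those of 4 months. The age ratio was 1.38 in WT (log2 fold change 0.47, SE 0.09, limma adjusted p = 0.00645) and 1.14 in *Gde2*KOs (0.20, SE 0.09, limma adjusted p = 0.129), of which the first passed the adjusted p.

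The light chain and peripherin had no age difference past the test. *Nefl* (chromosome 14, 68083863 to 68089095, plus strand) had 20699, 18354 and 15741 normalized counts in 4-month WT, 18662, 14474 and 20210 in 4-month *Gde2*KOs, 19962, 18415 and 17335 in 19-month WT and 17204, 16807 and 17540 in 19-month *Gde2*KOs. The 4 groups overlapped, and the age difference was 0.03 (95% interval -0.26 to 0.32) in WT and -0.04 (-0.32 to 0.25) in *Gde2*KOs on the log2 scale. *Prph* (chromosome 15, 99055174 to 99058978, plus strand) had 10.8 to 62.3 normalized counts, from 3 to 103 estimated reads a library. Its spread between libraries was wide, with 15, 103 and 57 reads in the 4-month WT replicates, and the 95% interval of its log2 age difference in WT was -1.12 to 1.37. Markers of the cholinergic, brainstem and peripheral neurons in which peripherin is best known summed to 1.94 to 25.0 TPM, with 6 of 8 detected.

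The same values were also read as the make-up of the filament RNA, a share within a library that does not depend on the scaling between libraries. These shares are parts of a fixed total and come from the libraries above, so they are not independent of the fold changes or of each other. *Nefl* made up 54.2%, 54.4% and 45.7% of the summed TPM of the 5 filament genes in 4-month WT and 46.8%, 45.3% and 53.1% in 4-month *Gde2*KOs. It made up 42.5%, 41.6% and 44.0% in 19-month WT and 43.4%, 41.4% and 42.2% in 19-month *Gde2*KOs, below every library of 4 months. The age difference was -7.39 percentage points in a two-sided exact permutation test within genotype (p = 0.005, the smallest that 400 arrangements allow, adjusted p = 0.045 over 18 share tests). *Nefh* rose from 5.16% to 5.90% at 4 months to between 6.13% and 7.13% at 19 months, by 1.08 points (exact permutation p = 0.005, adjusted p = 0.045). The share of *Nefm* was 4.98 points higher at 19 months (exact permutation p = 0.015, adjusted p = 0.0675) and that of *Ina* 1.40 points (p = 0.01, adjusted p = 0.06), and neither passed the threshold of 0.05. *Prph* stayed between 0.059% and 0.421%. Both calls were lost without 4-month WT replicate 1 or 2 and without any single library of 19 months, at adjusted p of 0.06 to 0.135, while over all 12 libraries left out in turn the age difference was -8.83 to -6.21 points for *Nefl* and 0.946 to 1.21 points for *Nefh*.

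**Figure D3:**
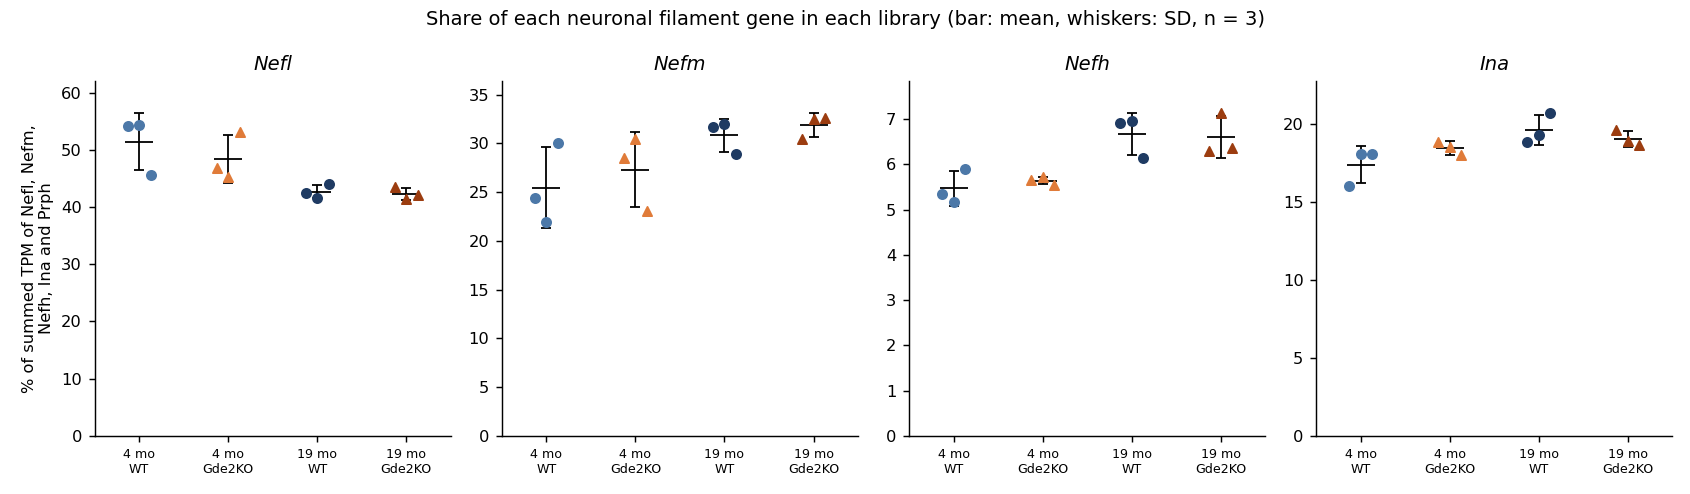
Share of *Nefl*, *Nefm*, *Nefh* and *Ina* in the summed TPM of the 5 filament genes (percent, vertical axis from 0) in each library, by group; bars are means and whiskers SD (n = 3). All 6 libraries of 19 months lie below all 6 of 4 months for *Nefl* and above them for *Nefh*.

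Among the microtubule genes, *Map2* was lower at 19 months. *Map2* (chromosome 1, 66175273 to 66442583, plus strand) had 44476, 40224 and 38745 normalized counts in 4-month WT, 38200, 35171 and 39295 in 4-month *Gde2*KOs, 28997, 29566 and 30276 in 19-month WT and 32916, 31448 and 33750 in 19-month *Gde2*KOs. Every library of 19 months was below every library of 4 months. The level at 19 months was 0.720 of that at 4 months in WT (log2 fold change -0.47, SE 0.09, limma adjusted p = 0.00598) and 0.871 in *Gde2*KOs (-0.20, SE 0.09, limma adjusted p = 0.13). Across all genes tested, 5.52% had every 19-month library above every 4-month library, the pattern of *Nefm*, *Nefh* and *Ina*, and 13.7% had every one below, the pattern of *Map2*.

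*Mapt* and *Map1b* moved less. *Mapt* (chromosome 11, 104231390 to 104332090, plus strand) had 15401, 15250 and 16023 normalized counts in 4-month WT, 19098, 15546 and 16498 in 4-month *Gde2*KOs, 18622, 18883 and 18556 in 19-month WT and 17739, 17788 and 18638 in 19-month *Gde2*KOs. In WT the ages did not overlap (log2 fold change 0.26, SE 0.09, limma adjusted p = 0.0571), whereas 4-month *Gde2*KO replicate 1 had the highest value of all (0.09, SE 0.09, limma adjusted p = 0.494). *Map1b* (chromosome 13, 99421446 to 99516540, minus strand) had 41197, 43192 and 35654 in 4-month WT, 34430, 32271 and 27491 in 4-month *Gde2*KOs, 31457, 34064 and 33464 in 19-month WT and 37619, 33852 and 35333 in 19-month *Gde2*KOs. In WT the older libraries were all below the younger (log2 fold change -0.27, SE 0.11, limma adjusted p = 0.101), and in *Gde2*KOs the ages overlapped (0.19, SE 0.11, limma adjusted p = 0.235).

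*Kif5a* and *Tubb3* showed no age difference past the test. *Kif5a* (chromosome 10, 127225696 to 127263348, minus strand) had 66876, 60624 and 93782 normalized counts in 4-month WT, 88407, 84595 and 92054 in 4-month *Gde2*KOs, 84494, 90181 and 97498 in 19-month WT and 92371, 88729 and 97816 in 19-month *Gde2*KOs. The 2 low libraries were 4-month WT replicates 1 and 2, those with 233 and 201 TPM of hippocampal markers, and the other 10 lay between 84494 and 97816. With both left out, the log2 age difference of *Kif5a* in WT went from 0.32 (SE 0.15, limma adjusted p = 0.145) to -0.05. *Tubb3* (chromosome 8, 123411424 to 123422015, plus strand) had 8631, 7753 and 8614 in 4-month WT, 10464, 8062 and 11921 in 4-month *Gde2*KOs, 8367, 9452 and 8382 in 19-month WT and 8915, 9098 and 9081 in 19-month *Gde2*KOs, with log2 age differences of 0.07 (95% interval -0.20 to 0.34) in WT and -0.15 (-0.42 to 0.12) in *Gde2*KOs.

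Leaving out any 1 of the 12 libraries kept the adjusted p under 0.1 in WT for *Nefm*, *Nefh*, *Ina* and *Map2*. For *Mapt* in WT it rose to between 0.118 and 0.169 without 4-month WT replicate 1 or 2 or 19-month WT library A, B or C. In *Gde2*KOs it rose to between 0.107 and 0.214 for *Nefm* without 4-month replicate 2 or 3 or 19-month library B or C, and to between 0.106 and 0.155 for *Nefh* without 4-month replicate 2 or 19-month library B or C. It was under 0.1 without 4-month WT replicate 3 for *Kif5a* (0.00445) and *Map1b* (0.0331) in WT and *Map2* (0.0959) in *Gde2*KOs, and for *Map1b* in WT also without 4-month *Gde2*KO replicate 1 (0.0959), 2 (0.0829) or 3 (0.0467). In *Gde2*KOs it was also under 0.1 for *Ina* without 4-month replicate 1 (0.0605), for *Map2* without 4-month replicate 2 (0.0488) and for *Tubb3* without 4-month replicate 2 (0.0270).

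The 2 WT libraries with hippocampal markers bear on the age differences in WT. With both left out, the log2 fold change with age in WT was 0.37 for *Nefm*, 0.51 for *Nefh*, 0.45 for *Ina* and -0.39 for *Map2*, and none had an adjusted p under 0.1 with the single 4-month WT library that remained. Among *Gde2*KOs, where no library had high hippocampal markers, the summed striatal markers were 732 to 1995 TPM at 4 months and 186 to 474 at 19 months. Their part in the age differences was not tested. The median log2 difference of all genes with age was -0.07 in WT and -0.21 in *Gde2*KOs, so that relative to it *Nefm* differed by 0.65 and 0.60, *Nefh* by 0.65 and 0.59, *Ina* by 0.54 and 0.41, and *Map2* by -0.40 and 0.01. With every library centred on its median gene, *Ina* (log2 fold change 0.42) and *Mapt* (0.31) also had an adjusted p under 0.1 in *Gde2*KOs, at 0.00943 and 0.0472, and *Map2* in *Gde2*KOs stood at 0.02. Libraries of the 2 ages did not overlap within genotype for 6 of the 10 genes in WT (4 higher, 2 lower) and 4 in *Gde2*KOs (3 higher, 1 lower), against 46% and 41.2% of all genes.

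**Figure D4:**
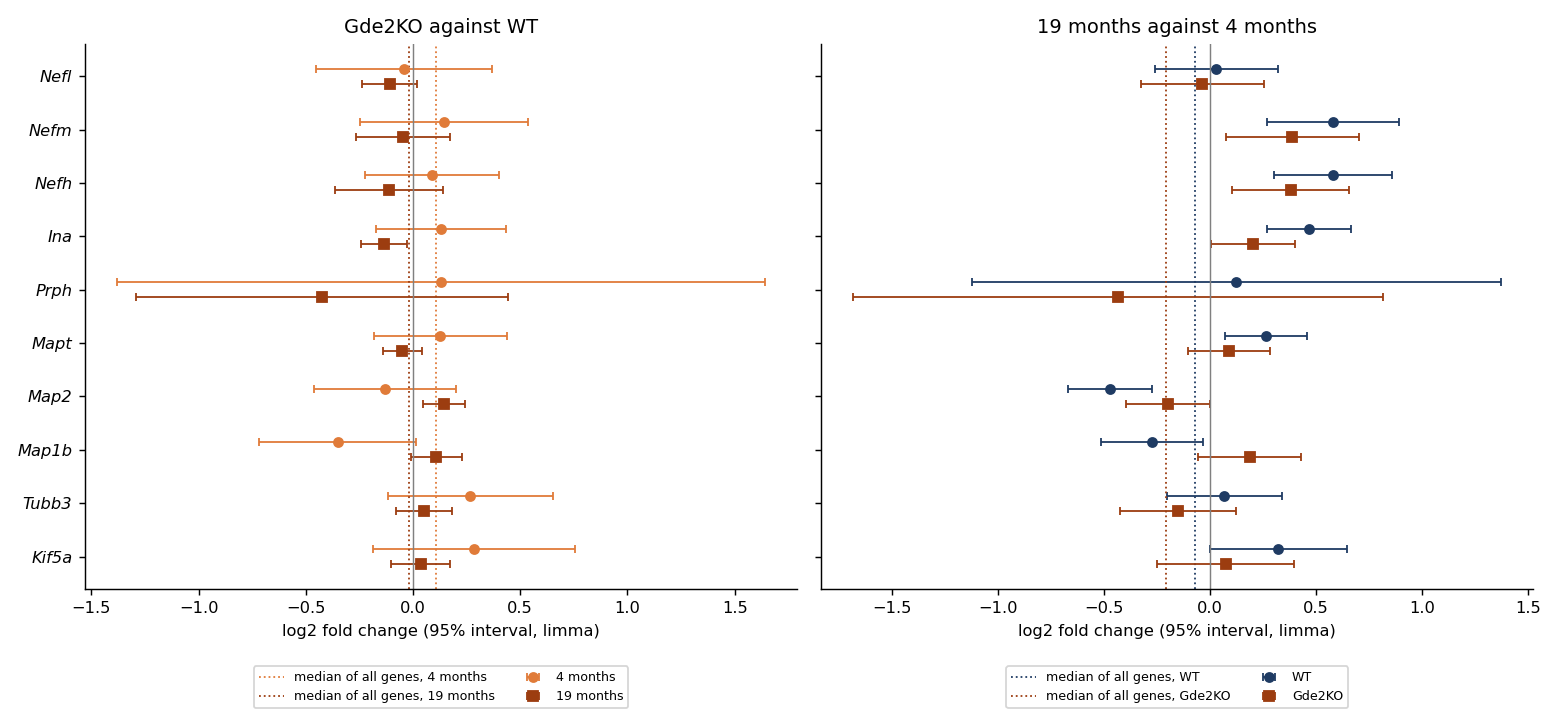
Log2 fold changes of the 10 genes with 95% intervals from limma, *Gde2*KO against WT at each age (left) and 19 months against 4 months in each genotype (right); dotted lines are the medians of all genes tested. The intervals of *Nefm*, *Nefh* and *Ina* lie above 0 for age in both genotypes, and 0 of the 10 genes was called in any of the 4 comparisons.

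None of the 10 genes was called between *Gde2*KOs and WT at either age. At 4 months 0 of 10 was called, where 0.126% of all genes were, and 0 had an unadjusted p under 0.05 by limma, where 10.6% of all genes had. At 19 months 0 of 10 was called, where 0.0969% were, and 2 had an unadjusted p under 0.05 by limma, where 6.91% had. The median log2 fold change of the 10 genes was 0.13 at 4 months and -0.05 at 19 months, beside 0.11 and -0.02 for all genes. Libraries of the genotypes did not overlap for 1 of the 10 genes at 4 months (*Map1b*), against 15.4% of all genes, and for 2 at 19 months (*Map2* and *Ina*), against 14.2%.

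At 4 months, *Map1b* was at 40014 ± 3905 normalized counts in WT and 31397 ± 3551 in *Gde2*KOs (SD, n = 3). The *Gde2*KO libraries were all lower, and the log2 fold change was -0.35 (SE 0.16, 95% interval -0.72 to 0.02, limma adjusted p = 0.463). Of the other 9 genes, *Kif5a* (log2 fold change 0.29, SE 0.20) and *Tubb3* (0.27, SE 0.17) followed in size, at limma adjusted p of 0.535 and 0.509. The mean of *Kif5a* was 73761 ± 17618 in WT and 88352 ± 3730 in *Gde2*KOs (SD, n = 3), and with WT replicates 1 and 2 left out its log2 difference was -0.09. For *Nefl*, *Nefm*, *Nefh*, *Ina*, *Mapt* and *Map2* the difference was between -0.13 and 0.14, with 95% intervals that reached down to -0.46 and up to 0.54. Both *Map1b* and *Map2* were highest in the WT replicates with high hippocampal markers, replicate 2 for the former and replicate 1 for the latter.

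At 19 months the intervals of the genotype differences were narrower. The SD in normalized counts was not smaller for every gene, being larger than at 4 months for *Nefm*, *Nefh*, *Ina* and *Tubb3* in WT and for *Kif5a* in *Gde2*KOs. *Map2* was at 29613 ± 641 normalized counts in WT and 32705 ± 1166 in *Gde2*KOs (SD, n = 3), a log2 fold change of 0.14 (SE 0.04, 95% interval 0.05 to 0.24, limma adjusted p = 0.614). *Ina* was at 8126 ± 336 in WT and 7388 ± 44.7 in *Gde2*KOs (SD, n = 3), a log2 fold change of -0.14 (SE 0.05, 95% interval -0.24 to -0.03, limma adjusted p = 0.664). For both, every *Gde2*KO library was on the same side of every WT library, but neither passed the test across 18583 genes. The 95% interval of *Nefl* was -0.24 to 0.02, that of *Nefm* -0.27 to 0.17, that of *Nefh* -0.36 to 0.14 and that of *Mapt* -0.14 to 0.04. Oligodendrocyte markers at this age summed to 2194 to 2910 TPM in WT and 2636 to 3539 in *Gde2*KOs, and their part in these differences was not tested.

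The difference between the genotypes was also compared between the ages. By this interaction 0 of the 10 genes passed an adjusted p of 0.1, where 0.048% of all genes did, and 1 had an unadjusted p under 0.05 by limma, where 12.9% had. That gene was *Map1b*, with a *Gde2*KO difference that was 0.46 higher at 19 months than at 4 months on the log2 scale (SE 0.16, limma adjusted p = 0.368). *Map2* (0.27, limma adjusted p = 0.389) and *Ina* (-0.27, limma adjusted p = 0.394) came next. Without 4-month WT replicate 3, the WT library with few hippocampal markers, *Map1b* and *Kif5a* passed, at adjusted p of 0.0428 and 0.0938, but so did 2029 of all 18522 genes, in place of 9.

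Transcript shares were examined for *Map2* and *Mapt*, which have 24 and 12 annotated transcripts. Most *Map2* RNA came from 2 transcripts, ENSMUST00000114013.7, whose coding length of 5484 bases includes the large exon (chromosome 1, 66412407 to 66416147, 3741 bases), and ENSMUST00000077355.11, whose coding length of 1401 bases does not. The large-exon transcript made up 32.4%, 31.1% and 29.5% of *Map2* TPM in 4-month WT and 23.1%, 28.1% and 17.5% in 4-month *Gde2*KOs. At 19 months it made up 24.9%, 29.8% and 30.3% in WT and 37.4%, 34.1% and 31.9% in *Gde2*KOs. Thus the *Gde2*KO libraries were all below WT at 4 months, with a mean difference of -8.09 points, and all above WT at 19 months, with a mean difference of 6.16 points.

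The short transcript ENSMUST00000077355.11 ran the other way. It made up 38.9%, 37.3% and 40.0% of *Map2* TPM in 4-month WT and 53.9%, 41.6% and 59.4% in 4-month *Gde2*KOs. At 19 months it made up 50.4%, 43.4% and 42.9% in WT and 35.0%, 32.1% and 37.3% in *Gde2*KOs. As levels, the large-exon transcript was at 166, 146 and 136 TPM in 4-month WT, 97.7, 118 and 72.0 in 4-month *Gde2*KOs, 83.7, 95.5 and 103 in 19-month WT and 138, 123 and 124 in 19-month *Gde2*KOs. The genotypes therefore did not overlap in the level of the large-exon transcript at either age.

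The difference between the ages in the genotype effect on the large-exon share was 14.2 points (p = 0.005 by a two-sided exact permutation test, with 400 arrangements and no smaller p possible, adjusted p = 0.045 over 9 shares). The arrangements swapped genotype within each age, so this p tests for no genotype effect at either age, not for equal effects at both. The same difference was -23.6 points for ENSMUST00000077355.11 (exact permutation p = 0.005), a transcript tested after its values had been seen. Of 56923 transcripts, 15.6% had shares that did not overlap between genotypes at 4 months and 12% at 19 months, and 1.55% did so at both ages in opposite directions, as these 2 *Map2* transcripts did. Averaged over the ages, the genotype difference of the large-exon share was -0.97 points (exact permutation p = 0.76, adjusted p = 0.805). The adjusted p of the interaction rose to between 0.09 and 0.18 without 4-month WT replicate 1, 2 or 3, 19-month WT library A or 19-month *Gde2*KO library A, with differences of 12.5 to 15.0 points.

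Several measurements stand beside this *Map2* pattern. Within 4-month *Gde2*KOs the large-exon share was lowest in replicate 3 and highest in replicate 2, and the total of all normalized TPM ran in the opposite order, with 1472299 in replicate 3, 1103966 in replicate 1 and 1020815 in replicate 2. The other 9 libraries had totals of 887748 to 1059701. Without *Gde2*KO replicates 1 and 3 the interaction was 9.04 points, and replicate 2 alone, at 28.1%, was still below the 3 WT replicates. At 19 months the WT library with the lowest share, library A, and the *Gde2*KO library with the highest, also library A, were the 2 shallow ones, and without both the interaction was 11.1 points. A share estimated from short reads also depends on how reads are divided among transcripts, and 6 other *Map2* transcripts overlap the large exon by 37 to 1845 bases. The large-exon transcript is annotated at 6258 bases, 5484 of them coding, and ENSMUST00000077355.11 at 5125 bases, 1401 of them coding. The second thus has the longer annotated untranslated sequence. The part of these in the result was not tested.

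Unequal fold changes among the transcripts of 1 gene were sought with limma's diffSplice, which could be applied to 6 of the 10 genes. At 4 months it called *Map2* for genotype (17 transcripts, adjusted p = 0.00117, with a largest share change of 12.9 points), 1 of the 10 genes, where 0.997% of all genes tested were called. That call was lost without WT replicate 2 (adjusted p = 0.134), without *Gde2*KO replicate 3 (share change 8.99 points), without WT replicates 1 and 2 together, and when only transcripts with a mean of at least 20 normalized counts were kept. At 19 months *Map2* was not called (adjusted p = 0.608, largest share change 10.7 points), nor was any other of the 10 genes, where 0.171% of all genes were. For age, 0 of the 10 genes was called in WT, where 2.53% were, and in *Gde2*KOs, where 3.2% were. *Map1b* had an adjusted p of 0.0032 with age in WT, but its largest share change was 3.02 points.

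*Mapt* had a steadier composition. A single transcript, ENSMUST00000106992.9, which holds exon 10 but neither exon 2 nor exon 3, made up 71.9% to 82.0% of *Mapt* TPM. The share of the 5 transcripts with exon 10 was 85.0%, 82.6% and 82.8% in 4-month WT and 90.2%, 83.6% and 89.8% in 4-month *Gde2*KOs. At 19 months it was 82.2%, 83.5% and 83.4% in WT and 85.1%, 83.8% and 88.2% in *Gde2*KOs. The genotype difference was 3.52 points (two-sided exact permutation test within age, p = 0.02, adjusted p = 0.072), which did not pass the threshold. Without 4-month *Gde2*KO replicate 2 it did (4.60 points, adjusted p = 0.03). These 5 are the only *Mapt* transcripts with a complete coding sequence in the annotation and all of them hold exon 10, so that this share sets complete transcripts against partial ones and cannot give the ratio of 3-repeat to 4-repeat tau. Transcripts with exon 2 made up 6.76% to 16.4%, those with exon 3 6.70% to 10.8% and those with exon 6 2.12% to 6.69% in the 12 libraries. At 19 months the genotypes did not overlap for exon 2 (6.76% to 11.4% in WT and 11.6% to 16.4% in *Gde2*KOs) or exon 3 (6.76% to 9.08% and 9.44% to 10.8%), and overlapped for exon 6. At 4 months they overlapped for exons 2 and 3. They did not overlap for exon 6, which was lower in *Gde2*KOs (4.77% to 6.31% in WT and 2.27% to 4.31%). Of the 3 transcripts with exon 6, ENSMUST00000145227.7 is a partial one of 600 bases. It made up 2.50% to 4.51% in 4-month WT and 0.905% to 1.92% in 4-month *Gde2*KOs. The 2 complete ones together overlapped, at 1.80% to 2.27% in WT and 1.37% to 2.39% in *Gde2*KOs. The exon 6 difference at 4 months was thus not seen in complete transcripts. Of 56923 single transcripts, 15.6% had shares that did not overlap between genotypes at 4 months and 12% at 19 months. The exon 2 extremes at 19 months, 6.76% and 16.4%, were those of the shallow WT library A and *Gde2*KO library A.

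**Figure D5:**
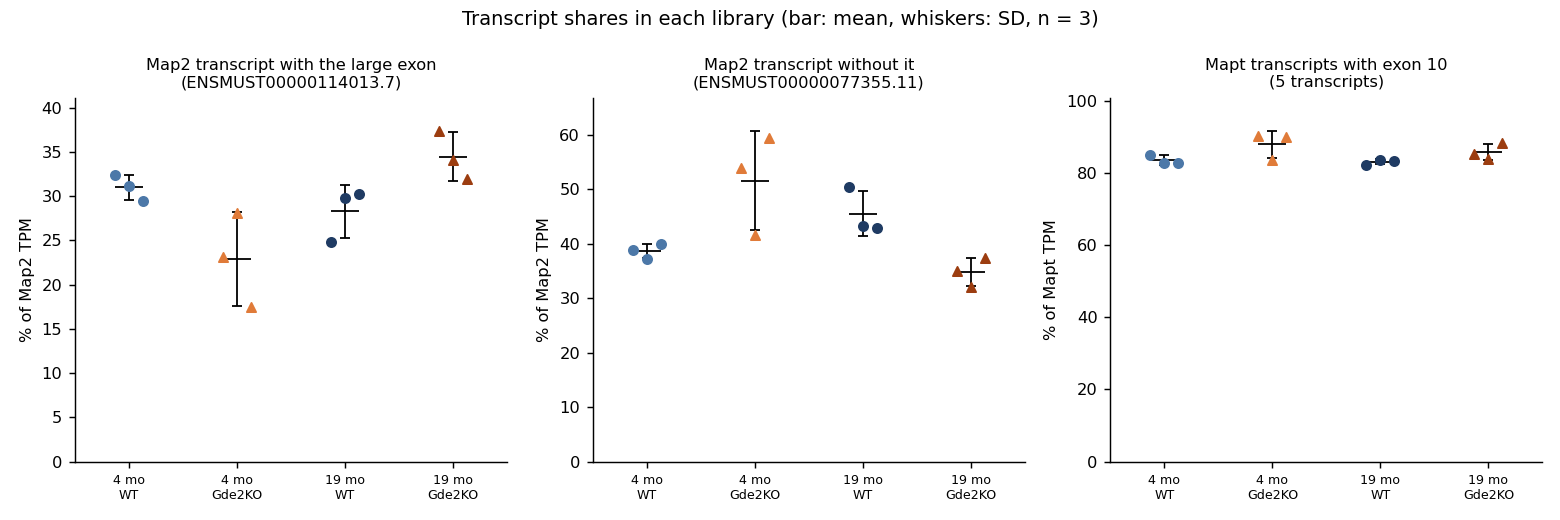
Share of *Map2* TPM in the transcript with the large exon (left) and in the short transcript ENSMUST00000077355.11 (middle), and share of *Mapt* TPM in transcripts with exon 10 (right), in each library (percent, axes from 0); bars are means and whiskers SD (n = 3). The *Gde2*KO points of the large-exon transcript lie below WT at 4 months and above WT at 19 months, the reverse holds in the middle panel, and in the right panel WT lies between 82.2% and 85.0% at both ages.

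Of the other 8 genes, all but *Prph* were nearly single-transcript genes in these libraries. *Nefl*, *Nefh* and *Ina* have 1 annotated transcript each, and the main transcript held 94.8% to 98.1% of *Nefm* TPM, 94.4% to 98.8% of *Map1b*, 99.2% to 100% of *Tubb3* and 99.2% to 99.8% of *Kif5a*. *Prph*, at 3 to 103 estimated reads, had 68.2% to 100% in its main transcript, and its 4 transcripts were not compared. *Nefl* shares 1108 exon bases on the opposite strand with the second *Nefm* transcript, ENSMUST00000111089.7, which held 1.93% to 5.22% of *Nefm* TPM, and *Ina* shares 456 with *Nt5c2*. The strand setting of the counting is not given in the sources used here, so reads from these stretches cannot be told apart.

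*Kif5a* and *Tubb3* were also read within their families. *Kif5a* made up 62.3%, 63.8% and 70.4% of the summed TPM of *Kif5a*, *Kif5b* and *Kif5c* in 4-month WT, 68.2% to 71.0% in 4-month *Gde2*KOs, and 69.4% to 72.0% at 19 months. *Tubb3* made up 10.01%, 11.7% and 15.0% of β-tubulin TPM in 4-month WT, 14.01% to 15.1% in 4-month *Gde2*KOs and 14.6% to 16.2% at 19 months. WT replicates 1 and 2 of 4 months were low in both, and the age differences of 3.25 points (exact permutation p = 0.055, adjusted p = 0.141) and 1.95 points (exact permutation p = 0.03, adjusted p = 0.09) did not pass. Without 4-month WT replicate 3 both did, at 4.48 points (adjusted p = 0.045) and 2.64 points (adjusted p = 0.036). For genotype, the 9 shares had adjusted p of 0.072 or more.

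Over the 12 libraries, after the group means were taken away, *Ina* and *Mapt* varied together most closely (Pearson r = 0.86 on log2 values), then *Nefl* and *Map2* (0.79) and *Nefm* and *Nefh* (0.77). The most negative value, for genes that varied in opposite directions, was that of *Map1b* and *Kif5a* (-0.56). These are descriptions, since the values share a library and its size factor. The SD within groups was 0.07 on the log2 scale for *Map2*, 0.08 for *Mapt*, 0.09 for *Ina*, 0.12 to 0.19 for *Map1b*, *Tubb3*, *Nefh*, *Nefl*, *Kif5a* and *Nefm*, and 0.78 for *Prph*.

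The rest of the cytoskeleton was described through 6 lists of other genes, in which 12 of 162 genes were called with age in WT and 12 in *Gde2*KOs. These shares, 7.41% in each, were below the 13.7% and 11.9% of all genes. In WT, 1 of the 20 other tubulins tested was called higher at 19 months (*Tuba1c*, log2 fold change 1.63) and 2 lower (*Tubb2a*, -0.98, and *Tubb2b*, -1.06, both β-tubulins). In *Gde2*KOs *Tuba1c* was again called higher (1.59), and *Tuba1a* (-0.73) and the tubulin-folding cofactor *Tbca* (-1.01) lower. Of 13 other intermediate filament and linker genes, desmin (*Des*, 2.05) and plectin (*Plec*, 0.82), which ties filaments together, and lamin A (*Lmna*, 0.77) were called higher in WT, and *Des* (2.09) and *Plec* (0.88) in *Gde2*KOs. The median log2 age difference of that list was 0.23 in WT and 0.31 in *Gde2*KOs, beside -0.07 and -0.21 for all genes.

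Of 41 other microtubule-associated proteins, *Mtcl1* (1.19) and stathmin (*Stmn1*, 0.73), which holds free tubulin, were called higher and *Dpysl3* (-0.97) lower with age in WT. In *Gde2*KOs 0 was called, and the smallest p were those of *Map7* (0.62, limma adjusted p = 0.00394) and the plus-end protein gene *Mapre1* (-0.52, limma adjusted p = 0.0115). Of 43 motors and adaptors, huntingtin-associated *Hap1* was called lower in WT (-0.90) and in *Gde2*KOs (-0.85), the latter with *Dctn5* of dynactin (-1.01), the dynein light chain *Dynlt3* (-0.93) and the depolymerizing kinesin *Kif2c* (-1.26). Of 18 tubulin-modifying enzymes, *Ttll6*, a polyglutamylase, was called lower in WT (-3.61, at 27.4 and 2.25 normalized counts) and *Svbp*, the partner of the vasohibins, in *Gde2*KOs (-0.94). Of 27 kinases and phosphatases of tau and neurofilaments, the Cdk5 activator *Cdk5r2* was called higher in WT (0.73), and the PP2A catalytic subunits *Ppp2ca* (-0.76) and *Ppp2cb* (-0.74) lower in *Gde2*KOs. Over the 6 lists 66 of 162 genes in WT and 72 of 162 in *Gde2*KOs had an unadjusted p under 0.05 by limma (40.7% and 44.4%), beside 34.5% and 37.5% of all genes.

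Some of the age differences of list genes in WT became small without the 2 hippocampal libraries, and some calls were lost without a single library. With both 4-month WT libraries of high hippocampal markers left out, only 4-month WT replicate 3 remained in its group, with 1386 TPM of striatal markers. Calls from that fit cannot be compared with those from 3 libraries, so fold changes alone are given. Of the 12 list genes called in WT, *Tuba1c* was then at 1.98 and *Des* at 1.54. The other 10 were then at 0.01 for *Stmn1*, 0.08 for *Mtcl1*, 0.12 for *Cdk5r2*, -0.30 for *Tubb2a*, -0.27 for *Tubb2b*, -0.49 for *Dpysl3*, 0.57 for *Plec*, 0.63 for *Lmna*, -0.88 for *Hap1* and -2.07 for *Ttll6* on the log2 scale. With single libraries left out, the calls of *Tuba1c* and *Des* in both genotypes, *Dpysl3* in WT and *Plec*, *Dctn5* and *Kif2c* in *Gde2*KOs were kept whichever one it was. Without 4-month *Gde2*KO replicate 3, the library with the largest total TPM, the age differences of *Tbca* (-0.64), *Tuba1a* (-0.48), *Dynlt3* (-0.65), *Hap1* (-0.67), *Svbp* (-0.71), *Ppp2ca* (-0.57) and *Ppp2cb* (-0.59) in *Gde2*KOs were no longer called. In WT, calls were lost without 4-month replicate 1 for *Tubb2a* (-0.68), *Tubb2b* (-0.63), *Mtcl1* (0.85), *Stmn1* (0.45), *Plec* (0.72) and *Cdk5r2* (0.55), and without replicate 2 for *Hap1* (-0.81), *Mtcl1* (0.97), *Stmn1* (0.65), *Cdk5r2* (0.60) and *Ttll6* (-3.22). *Lmna* was not called without 19-month WT library C (0.72), *Hap1* (-0.82) and *Cdk5r2* (0.70) in WT without 19-month WT library A, *Hap1* in *Gde2*KOs without 4-month *Gde2*KO replicate 1 (-0.64) or 19-month library B (-0.78), and *Tuba1a* without 19-month *Gde2*KO library A (-0.70). *Stmn1* was also not called without 4-month *Gde2*KO replicate 1, any 19-month WT library or 19-month *Gde2*KO library B or C, at adjusted p of 0.105 to 0.18.

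For genotype, 0 genes of the 6 lists were called at either age or for the interaction, by limma with adjustment over all genes. At 4 months the genes of smallest p were *Ttl*, the ligase that puts tyrosine back on tubulin (log2 fold change 0.77), *Vash1*, which removes it (-0.45), *Camk2a* (-0.54), *Ppp2cb* (0.42), *Stmn1* (1.07), doublecortin (*Dcx*, 0.46), *Ndel1* (0.42), *Dctn3* (0.48), *Lmna* (0.48), *Krt222* (0.39), *Tuba4a* (0.35) and *Tubg2* (0.39), with limma adjusted p of 0.463 to 0.487. *Stmn1* had 7547, 9954 and 18434 normalized counts in WT and 23279, 17038 and 32094 in *Gde2*KOs, with the 2 low values in the WT replicates of high hippocampal markers. At 19 months the smallest were *Tbce*, a tubulin-folding cofactor (-0.49, limma adjusted p = 0.201), *Tubg2* (-0.33), *Dctn5* (-0.46), *Kif2c* (-0.99), *Tppp3* (0.28), *Dclk2* (0.18), *Krt222* (-0.21), *Gfap* (0.65), *Ttll6* (2.67, with a WT mean below the value of 1 read in both shallow libraries), *Tpgs1* (-0.16), *Ppp2cb* (-0.17) and *Ppp2ca* (-0.11). For the interaction they were *Ttl* (-0.89), *Vash1* (0.70), *Camk2a* (0.72), *Ppp2cb* (-0.60), *Tubg2* (-0.72), *Tbce* (-0.60), *Dclk2* (0.56), *Stmn1* (-1.15), *Dctn5* (-0.62), *Kif2c* (-1.10), *Krt222* (-0.60) and *Synm* (0.46), with limma adjusted p of 0.368 to 0.372. Without 4-month WT replicate 3, *Stmn1* (1.43, limma adjusted p = 0.0182) and *Ttl* (0.96, limma adjusted p = 0.00878) were called at 4 months, where the calls over all genes rose from 24 to 1510 (8.03%), and *Ttl*, *Stmn1*, *Dclk2*, *Vash1*, *Tubg2*, *Camk2a*, *Ppp2cb* and *Synm* passed for the interaction, at adjusted p of 0.00141 to 0.0826, as did 2029 of all 18522 genes. At an unadjusted p under 0.05 by limma there were 15 list genes of 162 at 4 months (9.26%, beside 10.6% of all genes), 15 of 163 at 19 months (9.20%, beside 6.91%) and 31 of 162 for the interaction (19.1%, beside 12.9%).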

How the data were processed

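RNA was extracted with the RNeasy Plus Universal kit, and libraries were made from poly(A) RNA with the NEBNext Ultra II RNA kit and read in pairs. The authors pseudoaligned the reads to the GRCm38 transcriptome with Kallisto and normalized them with Sleuth, whose versions are not given in the sources used here. They deposited 2 transcript tables of signal values, estimated counts divided by a size factor of the library (normalized counts) and TPM divided likewise, so that TPM columns have unequal totals. They are not whole reads, so no count model was used. Of 118489 transcripts, 1673 without a gene, with 0.541% to 0.605% of a library's total, were left out of gene sums. STAR 2.5.2b and Trimmomatic 0.36, named in the submitters' processing notes, belong to alignments not used here, and 0 columns lacked a group.

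A gene's value is the sum over its transcripts. limma 3.58.1 in R 4.3.3 was fitted with an intensity trend to log2(value + 0.5) of all genes with at least 5 normalized counts in 47% of the libraries, within an age for genotype and over 4 groups for age and the interaction. Fold changes are on that scale, which understates those of low genes. Adjustment was by Benjamini-Hochberg over all genes tested, and the interaction was called at an adjusted p under 0.1 alone. For transcript usage, diffSplice of limma was run on transcripts with a mean of 5 or more, and calls needed a share change above 10 percentage points beside an adjusted p under 0.1. Shares of TPM were tested by exact permutation within strata. Exons and positions come from GENCODE vM21, and the match by symbol covered 10 of 10 genes. The limma gene calls and the diffSplice calls were tried on simulated counts with independent noise, and the exact permutation tests were not. Other steps used numpy 2.4.6 and pandas 2.3.3 in python 3.11.15, with figures by matplotlib 3.10.9.

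The genes, the 6 cytoskeleton lists and the marker lists were chosen with earlier results of these data known. Named list genes are those called, up to 5 a list, or else the 2 of smallest p. *Matcap1*, of the tubulin-modifying list, was not matched. Libraries are taken as separate animals, and p-values measure the spread between them. Whether both ages were prepared and sequenced together is not given in the sources used here. Alternatives were another pseudocount, no filter, TPM, centring, no trend, other usage and share settings, the replicate number as a block, and libraries left out.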

Additional observations from a re-analysis of the deposited data

Results flagged for a closer look

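The genotype difference in the share of *Map2* TPM in the large-exon transcript ENSMUST00000114013.7 differed between the ages, by 14.2 percentage points (two-sided exact permutation of genotype within each age, p = 0.005, adjusted p = 0.045 over 9 shares). That p tests for no genotype effect at either age, not for equal effects at both ages. The mean difference of *Gde2*KO from WT was -8.09 points at 4 months and 6.16 points at 19 months, with 3 of 3 *Gde2*KO libraries on the same side of WT at each age.

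The share of the short *Map2* transcript ENSMUST00000077355.11 differed in the opposite sense, by -23.6 points (two-sided exact permutation test, p = 0.005, not adjusted, tested after its values had been seen). The 2 shares are parts of 1 total and are not independent. In 4-month *Gde2*KO replicates 1, 2 and 3 the total of all normalized TPM was 1103966, 1020815 and 1472299, and the share of the short transcript was 53.9%, 41.6% and 59.4%. The part of the total in the result was not tested.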

How the results depend on the processing

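Over 166 results, 2671 values were computed under an alternative. Of these 2482 kept their direction and their side of the threshold or stayed within the allowed spread, 57 turned direction, 94 lost the threshold, 30 gained it and 8 moved. Of 850 member fold changes under an alternative, 808 kept their direction and 42 did not. The causes were not tested. Library removals and the omission of highest-TPM libraries were partly chosen after seeing the data.

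At 4 months the genotype fold changes that turned direction when libraries were centred were those of *Nefm* (-0.018), *Nefh* (-0.074), *Ina* (-0.033), *Prph* (-0.032) and *Mapt* (-0.036), with TPM *Prph* (-0.080) and *Mapt* (-0.013), and without both hippocampal WT libraries *Nefl* (0.16), *Nefm* (-0.067), *Prph* (-0.12) and *Kif5a* (-0.087). At 19 months, without both shallow libraries, they were *Nefm* (0.078), *Nefh* (0.023) and *Kif5a* (-0.0094). For age in WT they were *Nefl* without the shallow libraries (-0.023), and *Prph* (-0.13) and *Kif5a* (-0.050) without the hippocampal ones. For age in *Gde2*KOs they were *Nefl* with TPM (0.0059), and centred *Nefl* (0.18), *Map2* (0.019) and *Tubb3* (0.068). For the interaction they were centred *Nefl* (0.12) and *Mapt* (0.0054), and *Nefm* (0.020) and *Kif5a* (0.12) without the hippocampal libraries.

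By adjusted p alone 5 members passed for age in WT and 2 in *Gde2*KOs. *Map2* usage at 4 months gave 0 members called with a mean of 20 or more and 0 without the hippocampal libraries, and usage at 19 months gave 1 by the Simes test (*Map2*). *Gdpd5* at 19 months was -0.82 with TPM and -1.11 without a trend, and neither was called.

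Of the shares, the age difference of *Mapt* exon 10 was 0.840 points without the libraries of highest total TPM and 0.052 over protein-coding transcripts, and the genotype difference of the *Map2* large exon was 1.64 without those of highest TPM. Without the hippocampal libraries the genotype differences were 1.17 for *Nefl*, -0.857 for *Nefm*, -0.165 for *Nefh*, -0.097 for *Ina*, -0.321 for *Kif5a* and -0.326 for *Tubb3*, and without the shallow ones -0.077 for *Ina*. Without the shallow, hippocampal and highest-TPM libraries in turn, calls were lost for the age difference of *Nefl* (-7.61, -4.52 and -5.82), that of *Nefh* (1.09, 0.863 and 1.04) and the *Map2* interaction (11.1, 12.7 and 9.04), with fewer arrangements.

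With each library left out in turn, log2 genotype differences at 4 months ran from -0.15 to 0.10 for *Nefl* and -0.55 to 0.69 for *Prph*, and at 19 months from -0.16 to 0.029 for *Nefm*, -0.013 to 0.090 for *Kif5a* and -1.22 to -1.05 for *Gdpd5*. Those with age ran from -0.072 to 0.13 for *Nefl* and -0.56 to 0.68 for *Prph* in WT, and -0.18 to 0.064 for *Nefl* in *Gde2*KOs. Interactions ran from -0.21 to 0.037 for *Nefl* and -1.11 to 0.12 for *Prph*, with 0 to 2 members called, and usage at 4 months called 0 to 1. Genotype differences of shares ran from 2.90 to 4.60 points for *Mapt* exon 10, -2.27 to 0.384 for the *Map2* large exon, -0.083 to 0.158 for *Nefh* and -0.089 to 0.532 for *Ina*. Age differences ran from -8.83 to -6.21 for *Nefl*, 3.91 to 6.13 for *Nefm*, 0.946 to 1.21 for *Nefh*, 1.06 to 1.60 for *Ina*, 2.44 to 4.48 for *Kif5a* and 1.40 to 2.64 for *Tubb3*, and the *Map2* large-exon interaction from 11.5 to 16.8.

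Replicate numbers are shared by the genotypes at 4 months only. Correlations of same-numbered libraries were 0.060, 0.007 and -0.048, and those of differently numbered ones ran from -0.14 to 0.11. With 3 libraries a group this cannot settle whether the numbers pair the libraries. With the replicate block 21 genes were called at 4 months in place of 24, 0 members were called, and *Map2* usage was called at an adjusted p of 0.0796. *Prph* had 3 to 103 reads, with a wide spread between libraries.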
